A study of Mus musculus with 13 samples.

Results

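Cells of mouse abdominal epidermis that carried transcripts of Aspn, Nrtn and Pthlh together with Krt17 were described in 4 single-cell libraries. A cell was a member when the summed counts of Aspn, Nrtn and Pthlh reached 3 UMIs (unique molecular identifiers, each 1 captured transcript), Krt17 had at least 1 UMI and Krt79 had under 3 UMIs. Members were thus selected on these measured counts, which are given below as a description and support nothing. The rule was met by 2993 of 36927 kept cells, which are cells with at least 200 genes and at most 10% of UMIs from mitochondrial genes. The libraries came from dissociated whole epidermis of C57BL/6 mice and were made with the Chromium 3′ version 2 chemistry. The states were non-pregnant (NP), gestation day 16 (dpc16), and days 6 and 40 post partum (dpp6 and dpp40), with 1 library each. All 4 groups carried Tbx3creERT2, an inducible recombinase expressed from the Tbx3 locus, and the R26H2B EGFP nuclear reporter, and all were given tamoxifen. The labels give neither the age nor the number of animals in a library. State and library therefore cannot be told apart, no test between states was possible, and every interval below covers counting error only. Runs of 4 values are given in the order NP, dpc16, dpp6, dpp40.

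The rule genes have known roles. Nrtn encodes neurturin, a ligand of the GDNF family that acts on neurons through a GFRα coreceptor and the kinase Ret. Pthlh encodes parathyroid hormone-related protein, a keratinocyte product that signals to mesenchymal cells through Pth1r and restrains hair growth. Aspn encodes asporin, a small leucine-rich proteoglycan of the matrix that binds TGF-β, and is best known from connective tissue. Krt17 is a keratin of hair follicle epithelium and of wounded epidermis, whereas Krt79 marks the upper follicle and the sebaceous duct. In the mm10 build with GENCODE M21 annotation, Aspn lies on chromosome 13 from 49544443 to 49567565 on the plus strand. Nrtn lies on chromosome 17 from 56751325 to 56757530 and Pthlh on chromosome 6 from 147252101 to 147264183, both on the minus strand. Krt17 lies on chromosome 11 from 100256217 to 100261029, and Krt79 on chromosome 15 from 101929332 to 101940324, also on the minus strand. All 5 are protein-coding genes, and none overlaps another annotated gene on its own strand, while Cenpp overlaps Aspn on the opposite strand.

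The files held 6635, 12984, 9351 and 8716 barcodes, of which 6491, 12853, 9031 and 8552 passed the cell filter. The study states 6485, 12846, 9029 and 8552 cells. Deposited UMIs summed to 40450455, 74804602, 56849153 and 63492242, with a median of 4448 to 5638 UMIs per kept cell. The shallowest kept cell had 2839, 2719, 2568 and 3412 UMIs, so the dpp40 library starts deeper than the others. Pairs of libraries shared 75 to 154 barcodes, of which 0 to 3 were members in both. No doublet caller was run. Keratinocyte transcripts were also counted in an immune set of cells that were not members. These held at least 3 UMIs of the T and Langerhans cell genes Cd3d, Cd3e, Cd3g and Cd207. In this set the keratinocyte transcript Krt15 was detected in 94.2% to 100% of cells, and Krt17 in 56.7% to 71.2%. Whether free RNA or doublets gave these transcripts was not tested. Levels in the immune set are therefore given for comparison and are no measure of free RNA alone.

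Members numbered 569, 589, 972 and 863, or 8.77% (95% exact Clopper-Pearson interval 8.09 to 9.48), 4.58% (4.23 to 4.96), 10.8% (10.1 to 11.4) and 10.1% (9.46 to 10.7) of kept cells. Nrtn decided most of these entries. It gave 80.6%, 76.7%, 78.0% and 82.1% of the selecting UMIs, Aspn gave 10.7%, 14.0%, 11.4% and 8.67%, and Pthlh the remaining 8.76%, 9.32%, 10.5% and 9.22%. Cells with Nrtn and neither of the other genes made up 58.0%, 51.4%, 56.0% and 63.0% of members, and cells with all 3 genes 17.8%, 16.5%, 16.5% and 14.1%.

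The label of follicle cells held for only a portion of the members. The data separated them by 10 suprabasal genes of differentiating epidermis (Krt1, Krt10, Krt77, Krtdap, Sbsn, Ptgs1, Mt4, Lor, Flg2 and Calm4). These include genes of keratins and of cornified envelope proteins. Members had either a small or a large share of their UMIs from these genes, and a split at 3% was set after this was seen. Only 18, 34, 25 and 29 members lay between 2% and 4%. Suprabasal-low members numbered 350, 329, 755 and 454 (61.5%, 55.9%, 77.7% and 52.6% of members). Suprabasal-high members numbered 219, 260, 217 and 409. They were deep cells, with a median of 13471, 15476, 15960 and 17343 UMIs, against 3942, 4612, 4014 and 5166.5 UMIs in suprabasal-low members. Other cells above the 3% split that were not members had medians of 7899 to 9216 UMIs.

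**Figure D1:**
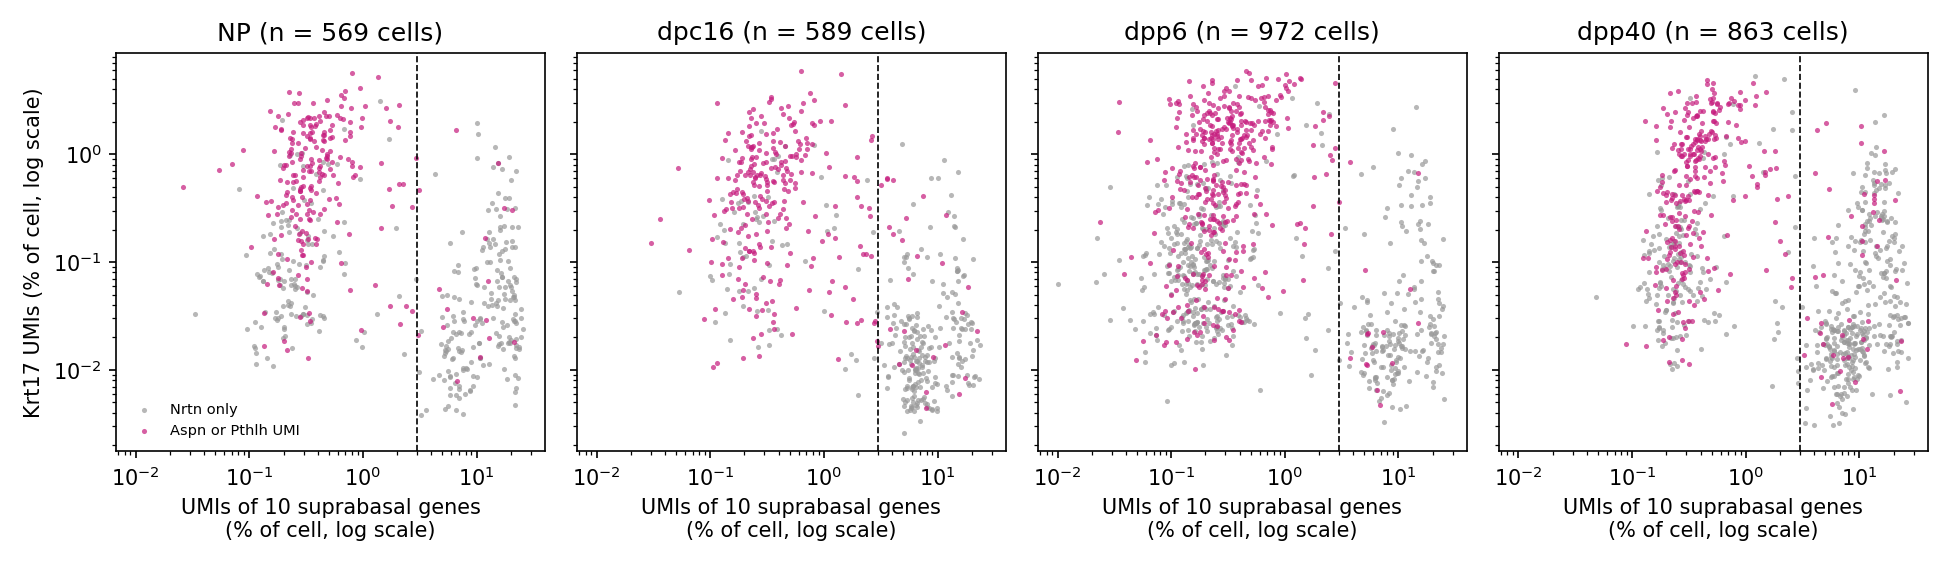
Each point is 1 member cell, with the percent of its UMIs from the 10 suprabasal genes on the x axis and the percent from Krt17 on the y axis (both log scales), for the 4 libraries. Cells with an Aspn or Pthlh UMI are pink, cells that entered through Nrtn alone are grey, and the dashed line is the 3% split. The pink cells lie mostly to the left of the line, where Krt17 is also higher.

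The rule genes themselves differed between these subsets, which is a description, because the rule used them. Levels are given as CPM, the summed counts of a subset scaled to a common library total. Aspn stood at 260, 299, 219 and 184 CPM in suprabasal-low members and at 3.10, 6.44, 2.53 and 6.25 CPM in suprabasal-high members. Pthlh stood at 212, 195, 201 and 198 CPM against 3.41, 5.98, 3.37 and 5.47 CPM. In the immune set Aspn had 2.06 to 5.09 CPM, which overlaps the suprabasal-high range, and Pthlh 1.27 to 3.11 CPM, just under it. Nrtn was present in both subsets, at 929, 581, 988 and 733 CPM in suprabasal-low members and at 574, 489, 572 and 442 CPM in suprabasal-high members. The immune set had 40.7 to 57.8 CPM of Nrtn.

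Krt17 stood at 6238, 5129, 6192 and 5991 CPM in suprabasal-low members, and at 819, 457, 1045 and 1189 CPM in suprabasal-high members. In the immune set Krt17 had 573, 619, 1242 and 1228 CPM, in each library above the share in the median immune cell given next. The median member with high suprabasal UMIs had 0.0299%, 0.0157%, 0.0210% and 0.0256% of its UMIs from Krt17, against 0.0163%, 0.0128%, 0.0138% and 0.0228% in the immune set and 0.340%, 0.357%, 0.228% and 0.244% in suprabasal-low members. After each cell was thinned to 3000 UMIs, Krt17 was detected in 91.9% to 95.5% of suprabasal-low cells, in 47.5% to 64.3% of suprabasal-high cells and in 39.1% to 58.4% of immune cells. Members needed 1 Krt17 UMI and immune cells did not, so these values are a description. At NP the thinned shares of suprabasal-high and immune cells did not overlap in their intervals (54.5 to 67.8 and 32.7 to 52.4). At the upper end, 10, 10, 19 and 51 of them held at least 50 Krt17 UMIs.

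**Figure D2:**
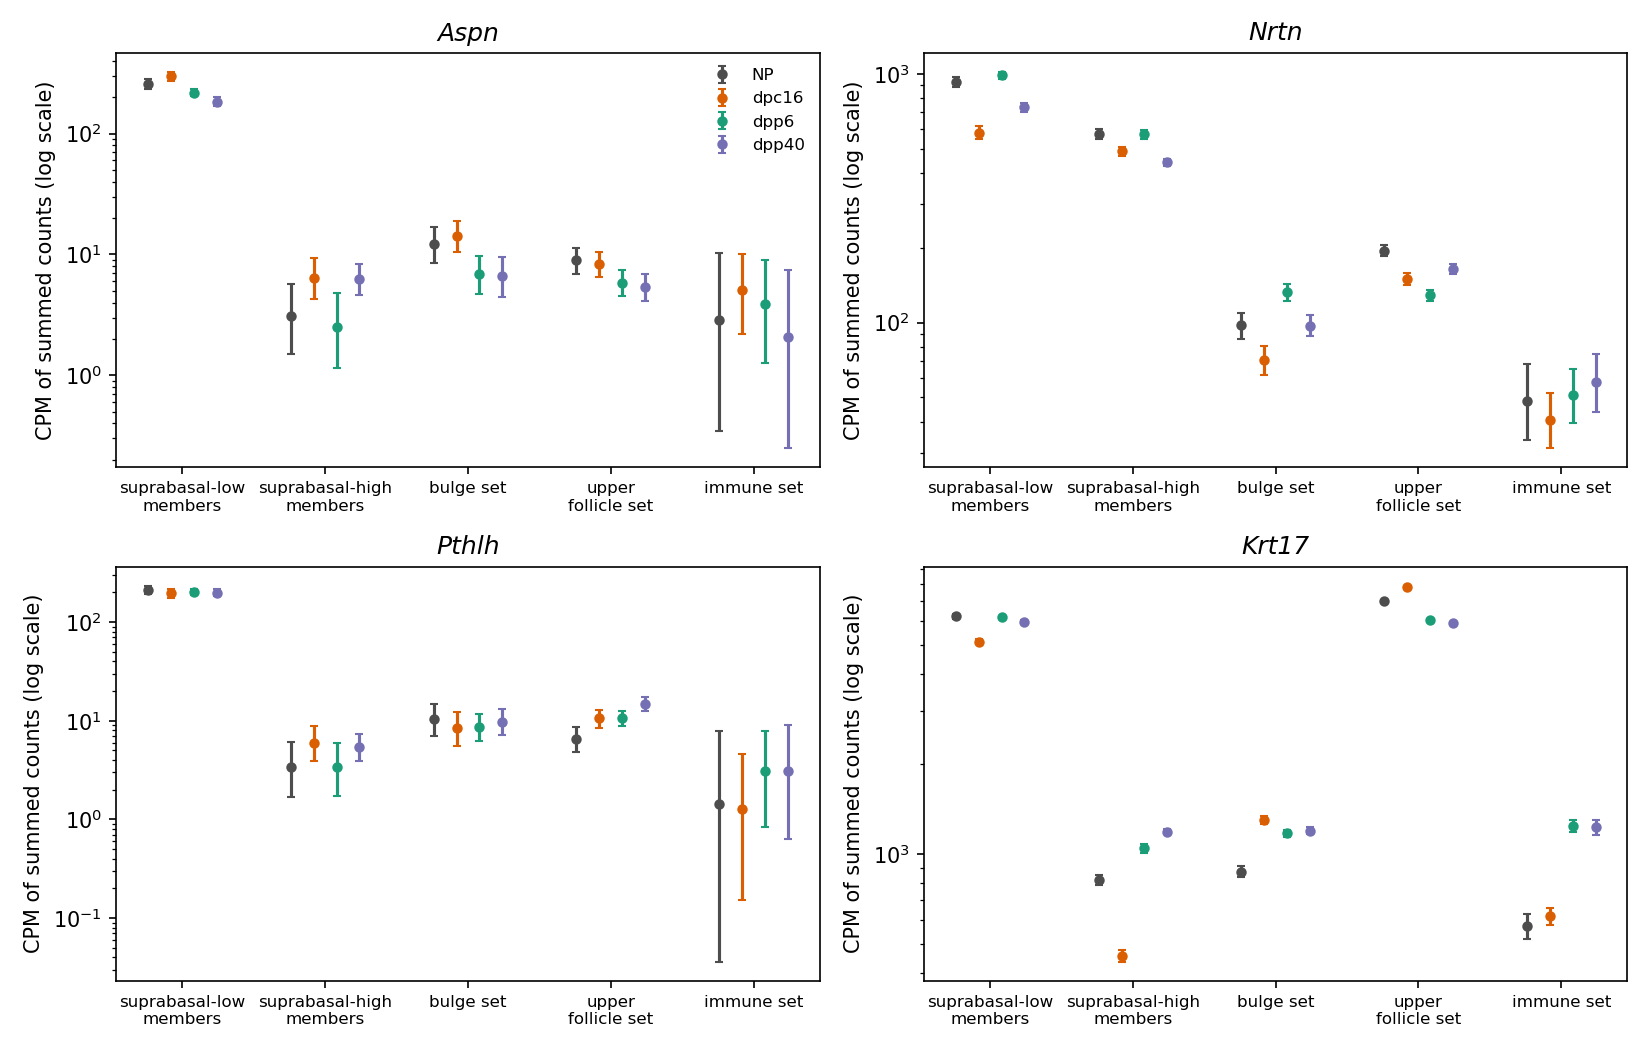
Levels of Aspn, Nrtn, Pthlh and Krt17 (CPM of summed counts, log scale) in 5 sets of cells, with 1 point per library and exact Poisson 95% intervals. Of the sets drawn, Aspn and Pthlh are highest in suprabasal-low members, Nrtn in both subsets of members, and Krt17 in suprabasal-low members and the upper follicle set.

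The rule also admitted cells with immune transcripts. Of all kept cells with at least 3 UMIs of the 4 immune genes, 9 of 122, 10 of 255, 16 of 239 and 11 of 136 were members, or 7.38% (3.43 to 13.5), 3.92% (1.90 to 7.09), 6.69% (3.87 to 10.6) and 8.09% (4.11 to 14.0). In 3 of the 4 libraries these intervals include the share among all kept cells, and at dpp6 the interval ended just under it. The median of these members was 7639, 13583, 5889.5 and 10342 UMIs, whereas the immune set without members had medians of 4151 to 6203 UMIs. Whether droplets with 2 cells contributed was not tested. They made up 1.27% to 1.70% of members.

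Suprabasal-high members expressed genes of the granular layer. Lor (loricrin, the main protein of the cornified envelope) stood at 31314, 16182, 29598 and 19356 CPM, against 5066, 2517, 6433 and 7806 CPM in the other cells above the split. Flg2 (filaggrin-2) stood at 2548, 1214, 2045 and 1506 CPM against 327, 108, 317 and 407 CPM. Klk7, a protease that acts in shedding of corneocytes, stood at 1958, 1123, 1818 and 1110 CPM against 266, 126, 313 and 355 CPM. Nrtn itself was at 574, 489, 572 and 442 CPM against 143, 104, 147 and 161 CPM in those cells. Early suprabasal Krt1 went the other way, with 1159, 2488, 1327 and 1161 CPM against 2929, 5007, 3270 and 1995 CPM. The libraries of the compared sets did not overlap for Lor, Flg2 or Klk7, of which Lor and Flg2 also defined the split. They did not overlap for Nrtn either, but Nrtn largely chose the members. It gave 98.9%, 97.5%, 99.0% and 97.4% of the selecting UMIs in suprabasal-high members, so its values are a description. Follicle genes were low in suprabasal-high members. Lhx2 stood at 8.99, 10.8, 14.6 and 12.6 CPM and Sox9 at 27.9, 22.3, 22.8 and 28.1 CPM, both under the immune set (27.2 to 42.7 and 69.3 to 99 CPM).

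Because of this mixture, the members taken as 1 group were dominated by granular genes. Against all other kept cells of the same library, 53 of 4678 genes (1.13%) were at least 4-fold higher in each of the 4 libraries. These ratios are between CPM values plus 10, over genes with a mean of at least 20 CPM in members. Wfdc21, Flg2, Serpina12, Cnfn, F3, Lor, Klk7 and Btc led, and of the rule genes Nrtn was among the 25 named (631 against 82.6 CPM in the mean of 4 libraries). In suprabasal-low members alone, 14 of 4955 genes (0.283%) passed the same fold. These were the 3 rule genes and Fam101b, Serpinb11, Sema3e, Ank, Cdc42ep3, Wfdc3, Shisa2, Grem1, Tgm5, Tgfb2 and Cryab. The following results are therefore given for suprabasal-low members unless stated.

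Fam101b led the genes outside the rule. It stood at 316, 266, 290 and 250 CPM in suprabasal-low members and at 98.5, 65.2, 106 and 98.7 CPM in the bulge set described below. Several genes of secreted signals were also higher in suprabasal-low members than in all other cells. Sema3e, an axon guidance ligand, stood at 144, 116, 106 and 92.9 CPM, against 10.2, 6.80, 12.3 and 8.94 CPM in all other cells. Tgfb2, the TGF-β2 ligand, stood at 90.1, 43.9, 74.8 and 96.3 CPM against 3.62, 2.63, 6.21 and 5.02 CPM. The neurotrophin Bdnf stood at 56.4, 50.9, 73.2 and 40.1 CPM against 3.07, 2.61, 4.48 and 2.56 CPM. For these 3 ligands the lowest library of members lay above the highest library of other cells. Another neurotrophin, Ntf3, stood at 50.6, 33.2, 35.1 and 35.6 CPM against 11.2, 12.2, 12.9 and 14.0 CPM. Ptn (pleiotrophin, a heparin-binding growth factor) stood at 1597, 1349, 1888 and 1493 CPM against 307, 238, 497 and 349 CPM.

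Antagonists of BMP, activin and Wnt ligands were present beside them. Fst (follistatin, which binds activin) stood at 827, 585, 634 and 717 CPM, against 175, 88.0, 166 and 153 CPM in all other cells. Grem1 (gremlin, a BMP antagonist) stood at 141, 130, 160 and 145 CPM against 20.1, 14.6, 28.6 and 20.6 CPM. Wif1, a secreted Wnt inhibitor, stood at 62.2, 22.5, 42.0 and 40.4 CPM against 3.65, 0.661, 3.33 and 3.98 CPM. All of these were higher in members than in all other cells in every library. The lists of such genes are compared with the bulge set below.

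Receptors of the Pthlh and Nrtn products were measured in the same cells. Pth1r, the receptor of the Pthlh product, had 0 UMIs in suprabasal-low members of 3 libraries and 1 UMI at dpp6. A count of 0 allows up to 3 UMIs, which is 1.74 CPM at NP, 1.61 CPM at dpc16 and 1.03 CPM at dpp40. Ret stood at 1.74, 0.536, 0.258 and 0.685 CPM and the neurturin coreceptor Gfra2 at 8.72, 3.21, 12.4 and 7.20 CPM. Gfra2 was higher in a bulge set, the Cd34 and Postn cells described below, at 15.4, 7.77, 31.9 and 29 CPM. The related coreceptor Gfra1 stood at 27.9, 18.2, 39.4 and 17.5 CPM, against 4.31, 1.79, 7.06 and 3.33 CPM in all other cells. Of the other ligands of the family, Gdnf stood at 1.74, 3.75, 3.35 and 3.77 CPM and Pspn at 0 in all 4 libraries. Robo2, a guidance receptor for Slit proteins, stood at 66.2, 45.0, 59.6 and 47.6 CPM against 5.57, 2.61, 6.04 and 4.73 CPM, while Slit2 was detected at dpp6 alone (0.516 CPM).

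Matrix genes of the fibroblast type did not accompany Aspn. Of the other small leucine-rich proteoglycans, Lum, Ogn, Omd and Kera were at 0 in all 4 libraries, Dcn had 0.581, 0.536, 1.29 and 0 CPM, and Bgn had 8.72, 2.14, 30.9 and 11.6 CPM. The fibroblast list as a whole summed to 26.2 to 115 CPM, against 725 to 1232 CPM in the immune set. Most of the list's sum at dpp6 was Vim (83.0 CPM), an intermediate filament gene of mesenchymal and immune cells. Smooth muscle genes summed to 0.536 to 4.11 CPM with Myh11 and Des at 0, and endothelial genes to 1.61 to 4.64 CPM with Cdh5 at 0. Merkel cell genes summed to 1.03 to 3.35 CPM with Krt20, Atoh1 and Isl1 at 0, and melanocyte genes to 23.6 to 42.0 CPM. T cell genes summed to 59.3 to 136 CPM and Langerhans cell genes to 296 to 554 CPM, against 2115 to 2559 and 16883 to 35586 CPM in the immune set.

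Suprabasal-low members were then compared with other keratinocytes under the 3% split, and with an interfollicular basal set. The bulge set, non-members with at least 3 UMIs of Cd34 and Postn, held 513, 549, 918 and 725 cells before the split. The upper follicle set, with at least 3 Krt79 UMIs, held 973, 1255, 1496 and 1314 cells. Both also needed 1 Krt17 UMI. The interfollicular basal set had at least 3 Krt14 UMIs, under 3 Krt10 UMIs and no UMI of a rule gene, and held 367, 1554, 556 and 258 cells.

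The bulge set was the nearest of the 3, which the definitions of the sets partly fixed. Like members, it needed at least 1 Krt17 UMI and under 3 Krt79 UMIs. The upper follicle set needed at least 3 Krt79 UMIs, and the interfollicular basal set had no UMI of a rule gene. Of 4955 genes, 4 were at least 4-fold and 25 at least 2-fold higher in members in each library, and 2 of 4920 genes were at least 2-fold lower. The 25 include 4 of the 5 rule genes, on which members were chosen, so the counts of higher genes were partly fixed by the rule. Among genes outside the rule, Cst6, a cysteine protease inhibitor of the follicle, had the highest ratio, with 4192, 3798, 3664 and 3046 CPM in members and 573, 471, 635 and 498 CPM in the whole bulge set. Tgfb2 stood at 6.28, 4.97, 13.7 and 11.9 CPM in the bulge set and Robo2 at 14.3, 6.21, 12.8 and 7.09 CPM, well under the values in members given above. Lgr6, a receptor that marks the isthmus, stood at 88.9, 55.7, 83.5 and 92.5 CPM in members against 25.1, 11.8, 30.6 and 23.5 CPM. The libraries of the compared sets did not overlap for Cst6, Tgfb2, Robo2 or Lgr6.

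Bulge genes were shared but not equal. Krt15 stood at 7406, 8522, 9267 and 6419 CPM in members and at 10516, 10623, 13421 and 10403 CPM in the bulge set. Cd34, a surface glycoprotein of bulge cells, was used to choose the bulge set. It was detected in 39.7%, 40.4%, 45.8% and 32.8% of suprabasal-low members, against 15.9%, 7.35%, 9.87% and 11.2% of immune cells. Krt24 stood at 48.8, 31.6, 59.3 and 53.1 CPM in members and 110, 70.5, 148 and 191 CPM in the bulge set, and the potassium channel gene Kcnk2 at 74.4, 40.7, 110 and 34.9 CPM against 157, 93.8, 227 and 123 CPM. Transcription factor genes were close. Lhx2 stood at 260, 223, 371 and 217 CPM in members against 191, 162, 289 and 195 CPM, and Sox9 at 437, 391, 409 and 343 CPM against 280, 265, 321 and 278 CPM. For Lhx2 the libraries of both sets overlap, and for Sox9 the lowest member library is above the highest of the bulge set.

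By list, 0 of 12 tested bulge genes and 0 of 18 tested follicle and epidermal transcription factor genes were 2-fold higher or lower in each library against the bulge set. Over all 5164 genes tested in that comparison 0.484% were higher and 0.0387% lower. Of 10 upper follicle genes, 4 were higher and 0 lower. Of 6 neurotrophic and guidance genes 0 were higher, of 13 BMP and TGF-β genes 2, and of 6 Wnt targets and inhibitors 1, with 0 lower in each list. Their median log2 ratios were 0.87, 0.05 and 0.07, against 0.0008 over all genes. Against the interfollicular basal set 7 of 12 bulge genes were higher (median log2 ratio 1.58, against 0.08 over all genes) and 2 of 10 interfollicular basal genes lower. Krt14, 1 of these 2 lower genes, was used to choose that set. Background was 2.40% higher and 0.251% lower there. Against the upper follicle set 6 of 12 bulge genes and 6 of 12 BMP and TGF-β genes were higher, and 6 of 7 sebaceous genes lower (2.49% and 1.88% of all genes).

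The difference from the upper follicle set was large in single genes. Defb6, a β-defensin of the upper follicle, stood at 597, 381, 253 and 614 CPM in members, against a mean of 10213 CPM in upper follicle cells under the split. Postn stood at 704, 511, 900 and 617 CPM in members and at 107, 83.6, 97.7 and 95.9 CPM in the whole upper follicle set. Gata6, a transcription factor of the sebaceous duct, went the other way with 38.9, 27.3, 24.5 and 32.6 CPM against 72.1, 59.9, 86.3 and 58.4 CPM. Krt14, which was used to choose the interfollicular basal set, stood at 2439, 3824, 2798 and 2894 CPM in members and at 5772, 8207, 7352 and 7951 CPM in that set. Shh, a ligand of growing follicles, was at 0 in suprabasal-low members of all 4 libraries. Genes of hair matrix, shaft and inner root sheath summed to 16.6 to 43.3 CPM, against 9.28 to 14.3 CPM in the immune set.

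**Figure D3:**
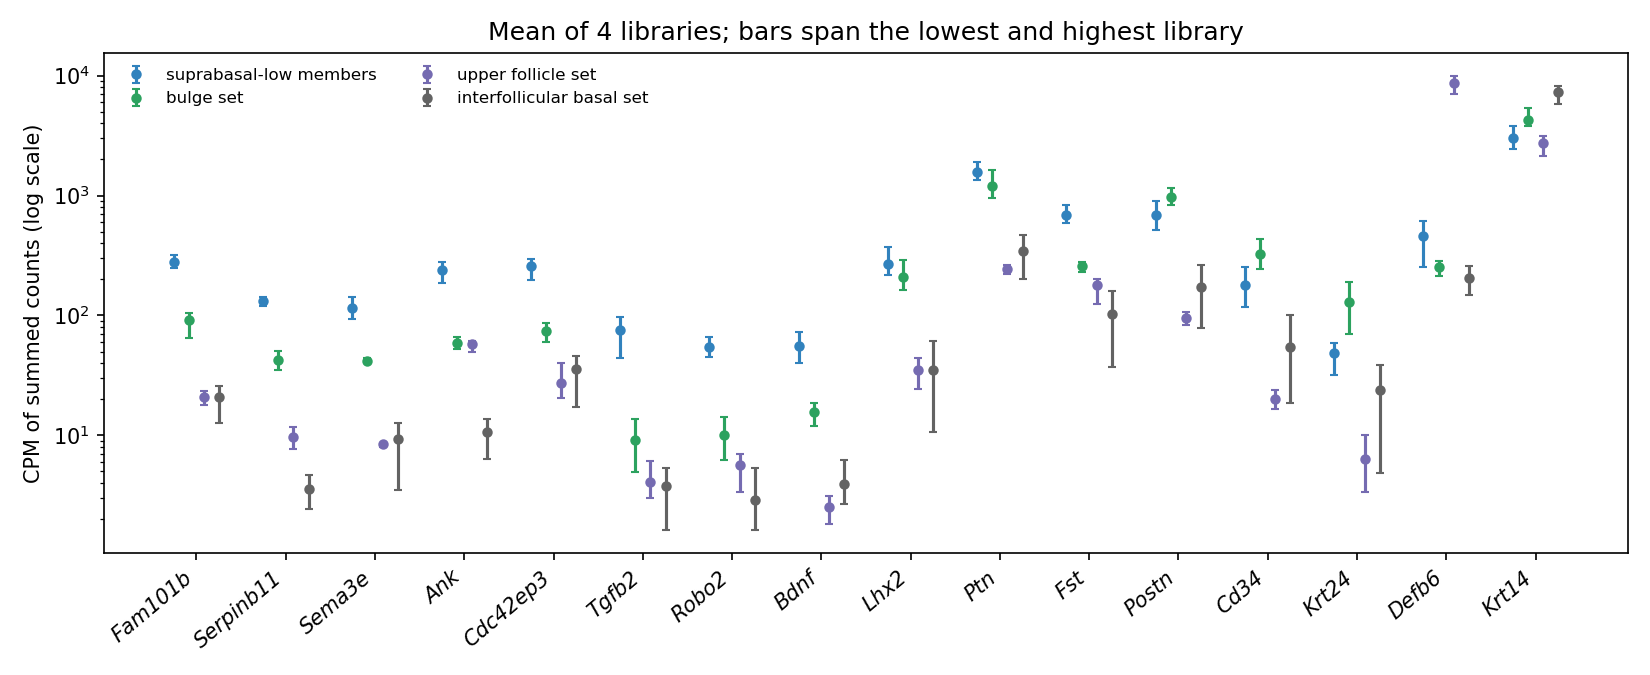
Mean level (CPM of summed counts, log scale) of 16 genes in suprabasal-low members and in the bulge, upper follicle and interfollicular basal sets, with bars from the lowest to the highest of the 4 libraries. Fam101b to Bdnf are highest in members, Cd34 and Krt24 in the bulge set, Defb6 in the upper follicle set and Krt14, which chose it, in the interfollicular basal set.

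Suprabasal-low members were not uniform. Cells with an Aspn or Pthlh UMI numbered 222, 258, 413 and 275, and cells that entered through Nrtn alone 128, 71, 342 and 179. Their median depths were 3838, 4493, 3739 and 5026 UMIs against 4191.5, 5254, 4391 and 5446 UMIs, so the cells with Nrtn alone were slightly deeper in each library. Among suprabasal-low members Pthlh was detected in 57.5%, 54.3%, 55.1% and 63.9% of cells with Aspn, and in 24.3%, 41.3%, 22.4% and 31.2% of cells without it. The rule summed these counts, so the shares are a description and support nothing.

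Of 4987 genes, 2 (0.0401%) were at least 4-fold higher in each library in cells with Aspn or Pthlh. These were Aspn and Pthlh, which defined the groups. At least 2-fold higher in each library were 25 genes, and 1 of 4844 genes was at least 2-fold lower. Some genes outside the trio thus differed, though none by 4-fold in every library. Krt17 stood at 9072, 6068, 10424 and 8975 CPM in cells with Aspn or Pthlh, and at 1949, 2205, 1945 and 2143 CPM in cells with Nrtn alone. Tgfb2 stood at 143, 55.9, 141 and 166 CPM against 10.2, 6.61, 8.78 and 6.28 CPM. Robo2 stood at 105, 56.6, 109 and 79.7 CPM against 7.30, 8.81, 10.3 and 6.28 CPM. No library of one group reached the range of the other for Krt17, Tgfb2 or Robo2. Fst stood at 1070.0, 668, 977 and 1001 CPM against 459, 324, 289 and 351 CPM. Cells with Nrtn alone had more Krt24 (93.5, 68.3, 82.6 and 76.1 CPM against 19.3, 19.8, 36.0 and 35.3 CPM) and more of the chemokine gene Cxcl12 (139, 79.3, 144 and 173 CPM against 60.8, 33.3, 58.7 and 73.0 CPM). Kcnk2 stood at 121, 66.1, 150.3 and 43.1 CPM in cells with Nrtn alone and at 43.4, 32.6, 69.0 and 28.6 CPM in cells with Aspn or Pthlh. Krt24 and Kcnk2, which were higher in the bulge set than in members, were thus higher in each library in the cells without Aspn and Pthlh.

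Cells on either side of the threshold are described without a test. Cells with 2 selecting UMIs that met the other conditions numbered 287, 298, 417 and 421, and members with exactly 3 UMIs numbered 132, 149, 223 and 217. Krt17 stood at 789 to 929 CPM in the former, at 833, 1145, 1569.9 and 919.96 CPM in the latter, and at 3258, 2064, 4294 and 2957 CPM in members with more than 3 UMIs. A further 44, 74, 199 and 57 cells reached 3 selecting UMIs with no Krt17 UMI, and 161, 142, 164 and 219 had at least 3 Krt79 UMIs. With the cut lowered to 2 UMIs the shares of kept cells were 13.2%, 6.90%, 15.4% and 15.0%.

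Across states, suprabasal-low members made up 5.39% (4.86 to 5.97), 2.56% (2.29 to 2.85), 8.36% (7.80 to 8.95) and 5.31% (4.84 to 5.81) of kept cells. The dpc16 library was lowest and the dpp6 library highest, and NP and dpp40 overlapped in their counting intervals. Cells with an Aspn or Pthlh UMI made up 3.42%, 2.01%, 4.57% and 3.22% of kept cells, and cells with Nrtn alone 1.97%, 0.552%, 3.79% and 2.09%. The latter were 36.6%, 21.6%, 45.3% and 39.4% of suprabasal-low members. The mix thus differed between libraries, and its part in the levels below was not tested. Suprabasal-high members made up 3.37% (2.95 to 3.84), 2.02% (1.79 to 2.28), 2.40% (2.10 to 2.74) and 4.78% (4.34 to 5.26). With every cell thinned to 3000 UMIs, which left out 396, 1036, 944 and 0 shallower cells, the suprabasal-low share was 3.69%, 1.40%, 4.62% and 3.11%, in an unchanged order for the lowest and the highest library. Over all members, dpp40 stood above NP as deposited and below it after thinning (4.22% and 4.64%). The suprabasal-high share was then 0.952%, 0.288%, 0.631% and 1.11%.

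A share of kept cells also depends on how many other cells were captured. The interfollicular basal set was 5.65%, 12.1%, 6.16% and 3.02% of kept cells. For each cell of the bulge set there were 0.682, 0.599, 0.822 and 0.626 suprabasal-low members, and for each cell of the upper follicle set 0.360, 0.262, 0.505 and 0.346. Members as a share of members and bulge cells together were 40.6% (37.3 to 43.9), 37.5% (34.3 to 40.8), 45.1% (42.7 to 47.5) and 38.5% (35.7 to 41.4). Of members and upper follicle cells together, members were 26.5% (24.1 to 28.9), 20.8% (18.8 to 22.9), 33.5% (31.6 to 35.5) and 25.7% (23.7 to 27.8). The dpc16 library was thus within counting error of NP and dpp40 against the bulge set, and below both against the upper follicle set.

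**Figure D4:**
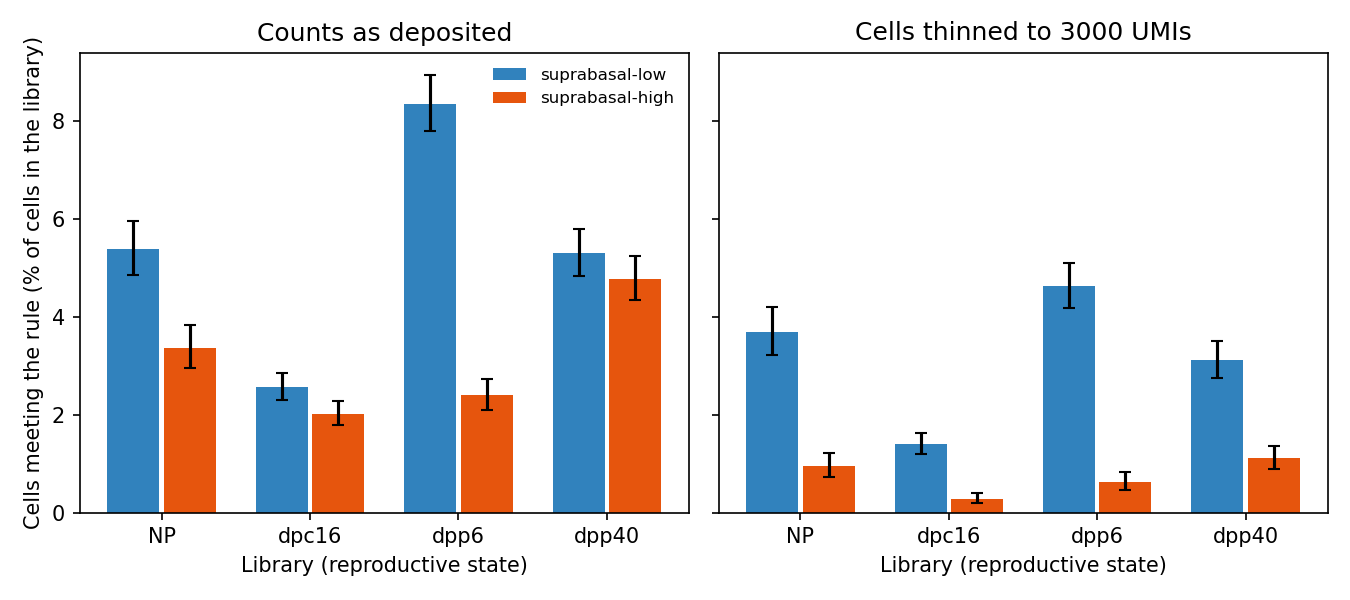
Percent of cells in each library that met the rule, split into suprabasal-low and suprabasal-high members, with exact 95% binomial intervals that cover counting error only. The left panel uses the counts as deposited and the right panel cells thinned to 3000 UMIs, and the suprabasal-low share is lowest at dpc16 and highest at dpp6 in both.

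Few genes differed 2-fold between states in members. Over all members, 26 of 4678 genes were at least 2-fold higher (0.556%) and 28 lower (0.599%) at dpc16 than at NP. At dpp6 the counts were 31 (0.663%) and 17 (0.363%), and at dpp40 8 (0.171%) and 10 (0.214%). With a pseudocount of 1 in place of 10 CPM, 56 genes were lower at dpc16. In suprabasal-low members, of 4955 genes, 27 were higher (0.545%) and 23 lower (0.464%) at dpc16, 18 (0.363%) and 23 (0.464%) at dpp6, and 9 (0.182%) and 5 (0.101%) at dpp40. In suprabasal-high members, of 4306 genes, the counts were 25 (0.581%) and 48 (1.11%) at dpc16, 20 (0.464%) and 12 (0.279%) at dpp6, and 11 (0.255%) and 24 (0.557%) at dpp40. With 1 library per state these counts have no replicate check.

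The rule genes, used to choose the cells, stayed within 2-fold of NP in suprabasal-low members of every state. Nrtn had its lowest level at dpc16 (581 CPM), and also did so in the bulge set (97.4, 70.5, 132 and 97.1 CPM) and in all other cells (91.6, 56.0, 99.9 and 82.9 CPM). Of 18 tested transcription factor genes, 11 BMP and TGF-β genes and 6 neurotrophic and guidance genes, 0 passed the fold in any state. The share of all genes past it was 0.101% to 0.545% for each direction and state. Of 12 bulge genes, 1 was lower at dpc16 and 1 higher at dpp6. Of 6 Wnt targets and inhibitors, Lgr5 and Wif1 were lower at dpc16, as were Sostdc1 and Klk10 of 10 upper follicle genes, and Wnt4 was higher among 3 Wnt ligands. The Wnt receptor gene Lgr5 was lower at dpc16 (33.1, 9.64, 73.2 and 38.4 CPM), and Npnt, which encodes the basement membrane protein nephronectin, was higher at dpp6 (26.7, 12.3, 68.3 and 32.6 CPM). Lgr5 had the same lowest library in all other cells, at 18.0, 3.45, 26.8 and 16.4 CPM.

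The 8 leading genes at dpc16 were Pyy, Akr1c18, Thy1, Stfa3, Tppp3, Il1r2, Fam162a and Calm5. Pyy, which encodes a gut peptide hormone, stood at 7.55, 142, 29.6 and 11.6 CPM in suprabasal-low members. It was detected in 1.43%, 15.2%, 6.23% and 3.96% of these cells but also in 4.42%, 17.6%, 6.73% and 2.40% of immune cells. Thinned to 3000 UMIs, it was detected in 1.62% (0.527 to 3.74), 11.97% (8.44 to 16.3), 3.83% (2.44 to 5.69) and 2.64% (1.37 to 4.57) of suprabasal-low members and in 0% (0 to 3.48), 8.89% (5.51 to 13.4), 3.78% (1.53 to 7.64) and 0% (0 to 2.91) of immune cells. The intervals, which cover counting error only, overlap in each library. Whether the shares in members exceed those in the immune set was not tested. Akr1c18, which inactivates progesterone, stood at 40.7, 246, 33.3 and 38.7 CPM, with 26, 63, 61 and 29 positive cells. In all other cells Akr1c18 stood at 138, 266, 210 and 106 CPM. Among 13 tested hormone receptor and responsive genes, Pyy, Cish and Fkbp5 were higher and 0 lower, against 0.545% and 0.464% of all genes tested. Cish, a target of STAT5, stood at 20.9, 60.5, 24.0 and 32.2 CPM, and Fkbp5, a target of steroid receptors, at 20.9, 62.1, 17.5 and 16.4 CPM. The immune set held Cish at 27.2, 57.2, 40.4 and 39.2 CPM and Fkbp5 at 32.9, 54.0, 25.6 and 10.3 CPM, so both reached like levels there at dpc16. Wnt4 stood at 72.6, 183, 84.6 and 63.0 CPM in members and at 97.2, 188, 62.9 and 82.5 CPM in the immune set.

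The genes lower at dpc16 included several that suprabasal-low members held above other cells. Wif1 was lowest at dpc16, with 22.5 CPM in 31 cells against 62.2 CPM in 81 cells at NP (log2 ratio -1.15). Gpha2, a glycoprotein hormone subunit gene, stood at 135, 55.7, 66.0 and 110 CPM, and at 51.7, 41.6, 37.6 and 78.8 CPM in all other cells. Sostdc1, a BMP and Wnt modulator, stood at 454, 191, 504 and 442 CPM, and at 329, 166, 390 and 315 CPM in all other cells. Crip1, which encodes a LIM domain protein, stood at 875, 341, 1005 and 969 CPM and at 283, 113, 272 and 336 CPM. All 4 genes had their lowest or next to lowest level at dpc16 in other cells too. Klk10 and Crct1, also called lower, each rested on 1 cell at NP, which held 82.8% and 44.8% of their UMIs.

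At dpp6 the clock gene Dbp stood at 58.1, 78.2, 224 and 138 CPM in suprabasal-low members and at 33.0, 54.8, 126 and 100.5 CPM in all other cells. The hour of harvest is not given in the sources used here. Cck, a peptide hormone gene, stood at 43.0, 67.0, 143 and 45.6 CPM, and at 12.9, 15.3, 21.8 and 6.19 CPM in the immune set. Its log2 ratio at dpp6 against NP was 1.53 in suprabasal-low members and 1.15 in all other cells. At dpp6, 2 of 9 tested S phase genes passed the fold upward, against 0.363% of all genes tested. Pcna stood at 23.2, 32.1, 60.8 and 38.4 CPM and Dut at 58.7, 71.8, 134 and 92.5 CPM. The S phase list had a median log2 ratio of 0.64 at dpp6, against 0.06 over all genes. None of 10 tested G2 and mitosis genes passed at dpp6, but all 10 had a log2 ratio above 0, with a median of 0.28. Mki67 was detected in 6.00%, 4.86%, 6.36% and 6.17% of cells.

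Lower at dpp6 were Ly6a, a surface antigen, with 72.6, 29.5, 10.3 and 43.2 CPM, and the metallothionein gene Mt4 with 254, 258, 59.6 and 157 CPM. The metallothioneins Mt1 (1852, 1044, 878 and 2040 CPM) and Mt2 (1069, 783, 493 and 1336 CPM) were also past the fold at dpp6. Ly6a stood at 150, 46.9, 22.2 and 103 CPM in all other cells. At dpp40 Ndufa4l2, a mitochondrial protein gene induced by low oxygen, stood at 305 CPM against 103 CPM at NP, beside 568 and 301 CPM in all other cells. Cyr61, a matricellular protein gene, stood at 364 CPM against 167 CPM, beside 387 and 177 CPM.

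**Figure D5:**
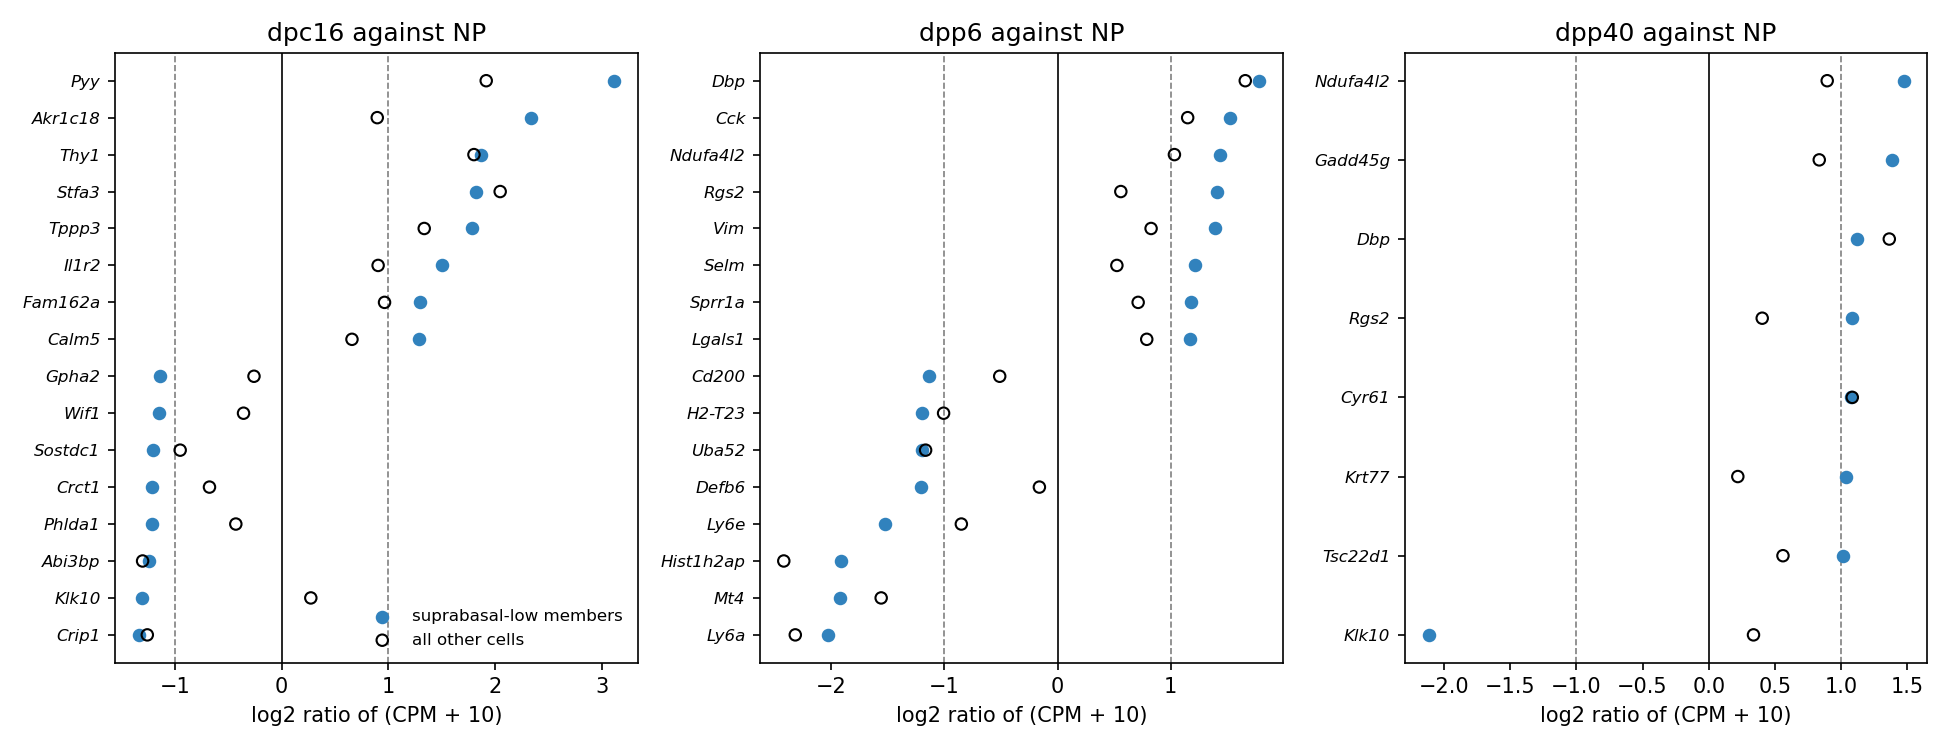
Log2 ratio of CPM plus 10 against NP in suprabasal-low members (filled) and in all other cells of the same library (open) for the named genes of each state, with dashed lines at 2-fold. Akr1c18, Pyy and Gpha2 lie farther from 0 in members, and Stfa3 and Ly6a in other cells.

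In suprabasal-high members the named higher genes included members of the late envelope family. Lce1h, 1 of a family of near-identical envelope genes whose reads may be split among copies, stood at 2.79, 57.3, 197 and 91.2 CPM. Lce1l stood at 94.9, 469, 1206 and 434 CPM. Wfdc18, which encodes a small secreted protein, stood at 3.10, 193, 354 and 0.391 CPM, high at dpc16 and dpp6. Btc, an EGF receptor ligand, stood at 760, 353, 481 and 277 CPM and was past the fold at dpc16 (log2 ratio -1.09) and dpp40 (-1.42). In all other cells Lce1l stood at 160, 134, 80.6 and 186 CPM, without a higher level at dpp6. Most of those cells lay under the 3% split (7387 of 8059 at dpp6), so they are not matched to suprabasal-high members in differentiation.

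Tbx3 and its reporter were sparse. Tbx3 was detected in 3.71%, 5.47%, 1.46% and 1.76% of suprabasal-low members, against 1.77%, 4.08%, 0.897% and 1.60% of immune cells. EGFP was detected in 1.43%, 1.22%, 0.530% and 0.441% of suprabasal-low members and in 18.7%, 15.0%, 13.8% and 12% of suprabasal-high members, with 0% to 2.69% in immune cells. After thinning, EGFP was detected in 5.07%, 3.09%, 2.30% and 2.69% of suprabasal-high members (11, 8, 5 and 11 cells). In the other cells above the split it was detected in 0.243%, 0.691%, 1.54% and 0.612%. At dpp6 the counting intervals overlapped (0.752% to 5.29% and 0.739% to 2.81%). They also overlapped at dpp40, narrowly, where the interval of suprabasal-high members was 1.35% to 4.76%.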

How the data were processed

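Raw UMI counts were deposited by the authors for 4 single-cell libraries. Cell Ranger 2.2.0 and mm10 are named in the submitters' processing notes, and their annotation and barcode filter are unknown here. The deposited FPKM of 9 sorted bulk libraries were not used. Counts of 28693 genes were summed over the cells of a set in each library and scaled to CPM (Python 3.11.15, numpy 2.4.6, scipy 1.17.1). Ratios used CPM plus 10 and genes with a mean of at least 20 CPM. Depth was checked by thinning each cell to 3000 UMIs. The fold rule was tested on simulated data. With 1 library per state there was no test. TMM factors came from edgeR 4.0.16, as an alternative only. Genes were named by rule: the rule genes, the 25 largest ratios among genes of at least 50 CPM, the 8 highest and 8 lowest per state with at least 50 CPM and 20 UMIs, and the 4 most abundant genes of each of 36 lists. Predicted and ribosomal genes were counted but not named, nor were 58 symbols with more than 1 ID. Other named genes (receptors, matrix genes and genes of the subset comparisons) were chosen after their values were seen. The members and the lists were chosen with earlier results of these data known.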

Additional observations from a re-analysis of the deposited data

How the results depend on the processing

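With a cut of at least 2 selecting UMIs the share of members was 13.2%, 6.90%, 15.4% and 15.0% (NP, dpc16, dpp6, dpp40), with a cut of 4 UMIs 6.73%, 3.42%, 8.29% and 7.55%, and with cells thinned to 3000 UMIs 4.64%, 1.68%, 5.26% and 4.22%. The suprabasal-low share after thinning was 3.69%, 1.40%, 4.62% and 3.11%. Against NP, genes higher in members at dpc16 numbered 40 with no filter and 15 with a filter of 50 CPM, and lower genes 56 with a pseudocount of 1 CPM and 48 in suprabasal-high members. Higher genes at dpp6 numbered 19 with the filter of 50 CPM, 48 with a pseudocount of 1 CPM, 18 in suprabasal-low and 20 in suprabasal-high members, and lower genes 40 with the mean of single-cell CPM. Higher genes at dpp40 numbered 14 with the cut of 2 UMIs. Lower genes at dpp40 numbered 6 with the mean of single-cell CPM, 17 with no filter, 5 with the filter of 50 CPM, 19 with a pseudocount of 1 CPM, 5 in suprabasal-low and 24 in suprabasal-high members. Genes at least 4-fold higher than in all other cells numbered 14 in suprabasal-low and 91 in suprabasal-high members. A filter changes which genes are tested, and the cause of the other differences was not tested. The share of members at dpp40 was above that at NP as deposited and below it after thinning. The suprabasal split, its values of 2% and 5% and the thinned subset shares were chosen after seeing the data. Under the cut of 4 UMIs, 201 of 232 levels of 58 named genes left their counting interval.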
